A study of Mus musculus with 23 samples.

Results

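Leukotrienes and prostanoids are lipid messengers that cells make from arachidonic acid. Measured here were the transcripts of 10 genes of their synthesis, in RNA sequencing of whole mouse hearts. They are the 4 leukotriene genes Alox5, Alox5ap, Lta4h and Ltc4s and the 6 prostanoid genes Ptgs1, Ptgs2, Ptgis, Ptgds, Ptges and Tbxas1, picked by symbol from the 52392 genes for which read counts could be recovered. They were chosen with their behaviour in these hearts known, so their differences between treated and control hearts are given as a description without a test.

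The 23 hearts belong to 2 mouse models of HFpEF, a heart failure in which ejection fraction is preserved, and each model was sequenced with its controls in a run of its own. All mice were C57BL/6J. In run 2, Leprdb/db mice (db/db), which lack a working leptin receptor and become obese and diabetic, received minipumps at 12 weeks of age and were infused with 0.3 µg of d-aldosterone per hour over 4 weeks. This group, db/db+Aldo, had 8 mice (4 female). Their sham controls were wild-type mice whose pumps held saline with ethanol (7 mice, 4 female), and both groups ate normal chow. In run 1, wild-type mice aged 10 weeks were put for 15 weeks on a diet with 60 kcal% fat, with L-NAME, which inhibits nitric oxide synthase, in their water (0.5 g/L). This group, HFD+L-NAME, had 4 mice (2 female). Their controls were age-matched wild-type mice on chow (4 mice, 2 female). The parts of each treatment (genotype and aldosterone, or diet and L-NAME) cannot be told apart. No control carries db/db without aldosterone or aldosterone without db/db. Nor can the models be compared directly, since each model is 1 run.

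Alox5 encodes 5-lipoxygenase, which oxidises arachidonic acid to leukotriene A4 with the help of the membrane protein encoded by Alox5ap. The hydrolase Lta4h turns leukotriene A4 into leukotriene B4, which attracts leukocytes, while the synthase Ltc4s joins it to glutathione and so opens the branch of the cysteinyl leukotrienes. On the prostanoid side, the cyclooxygenases Ptgs1 and Ptgs2 form prostaglandin H2. The terminal synthases Ptgis, Ptgds, Ptges and Tbxas1 convert it to prostacyclin, prostaglandin D2, prostaglandin E2 and thromboxane A2. Leukotriene enzymes are best known from myeloid cells, prostacyclin synthase from vessel walls and thromboxane synthase from platelets and macrophages.

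Total counts were 21258779 to 25692431 per heart, and 41.2 to 52.8% of them in db/db+Aldo hearts were transcripts of the mitochondrial genome, against 30.0 to 42.7% in sham hearts (45.3 to 53.1% in HFD+L-NAME and 47.0 to 50.2% in chow hearts). One db/db+Aldo library, replicate 5, stood apart, with a median correlation of 0.965 to its group, against at least 0.980 for each other library. Sham replicate 7 had the lowest mitochondrial share, 30.0%, and the largest size factor, 1.38. All 8 cardiomyocyte markers listed passed the filter on low values in both models. Values below are normalised counts, that is, reads recovered from the deposited table and divided by size factors. Each change is on the scale of log2(normalised count + 1) with its standard error.

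The transcription start of Alox5, which was lower in both models, and that of Ptges, which had the largest rise among the 10 genes in db/db+Aldo hearts, are shown by the 250 bases before them. The sequences are RefSeq's for GRCm38.p6, printed 5′ to 3′ on the strand of the gene. That of Alox5 is chr6:116461179-116461428 on the minus strand and ends where the annotated gene (chr6:116410077-116461178) begins. That of Ptges is chr2:30903298-30903547, minus strand, and lies inside the longer annotated span of Ptges (chr2:30889471-30929863), clear of its exons. Capitals mark the motifs that were searched for and found.
Alox5: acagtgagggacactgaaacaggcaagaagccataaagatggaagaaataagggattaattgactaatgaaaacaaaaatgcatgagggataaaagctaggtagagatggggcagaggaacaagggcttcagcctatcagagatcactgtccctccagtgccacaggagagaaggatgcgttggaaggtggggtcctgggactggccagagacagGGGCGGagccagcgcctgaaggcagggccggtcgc
Ptges: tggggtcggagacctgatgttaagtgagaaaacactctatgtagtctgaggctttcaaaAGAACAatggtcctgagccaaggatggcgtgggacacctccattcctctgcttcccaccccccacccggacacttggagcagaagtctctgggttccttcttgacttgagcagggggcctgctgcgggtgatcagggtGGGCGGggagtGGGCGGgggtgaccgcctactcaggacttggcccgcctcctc
The motifs were the GC box GGGCGG, the half-site AGAACA of the glucocorticoid and mineralocorticoid receptors, the E-box CACGTG and the TATA box TATAAA, each on both strands. In Alox5 a GC box lay 35 to 30 bases before the start. In Ptges the half-site lay 191 to 186 bases and a pair of GC boxes 53 to 48 and 42 to 37 bases before the start. Among all 32851 windows of this length in the table, 32.7% held the GC box, 16.1% the half-site, 6.02% the E-box and 12.4% the TATA box. A window was given for 8 of the 10 genes, and of these Ptgs2 also held a GC box, Ptgs1 the half-site and Tbxas1 the TATA box. The windows of Ptgs2 and Tbxas1 overlap annotated exons, and that of Tbxas1 lies inside the annotated span of the gene. A match describes letters and does not show that a factor binds there.

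**Figure D1:**
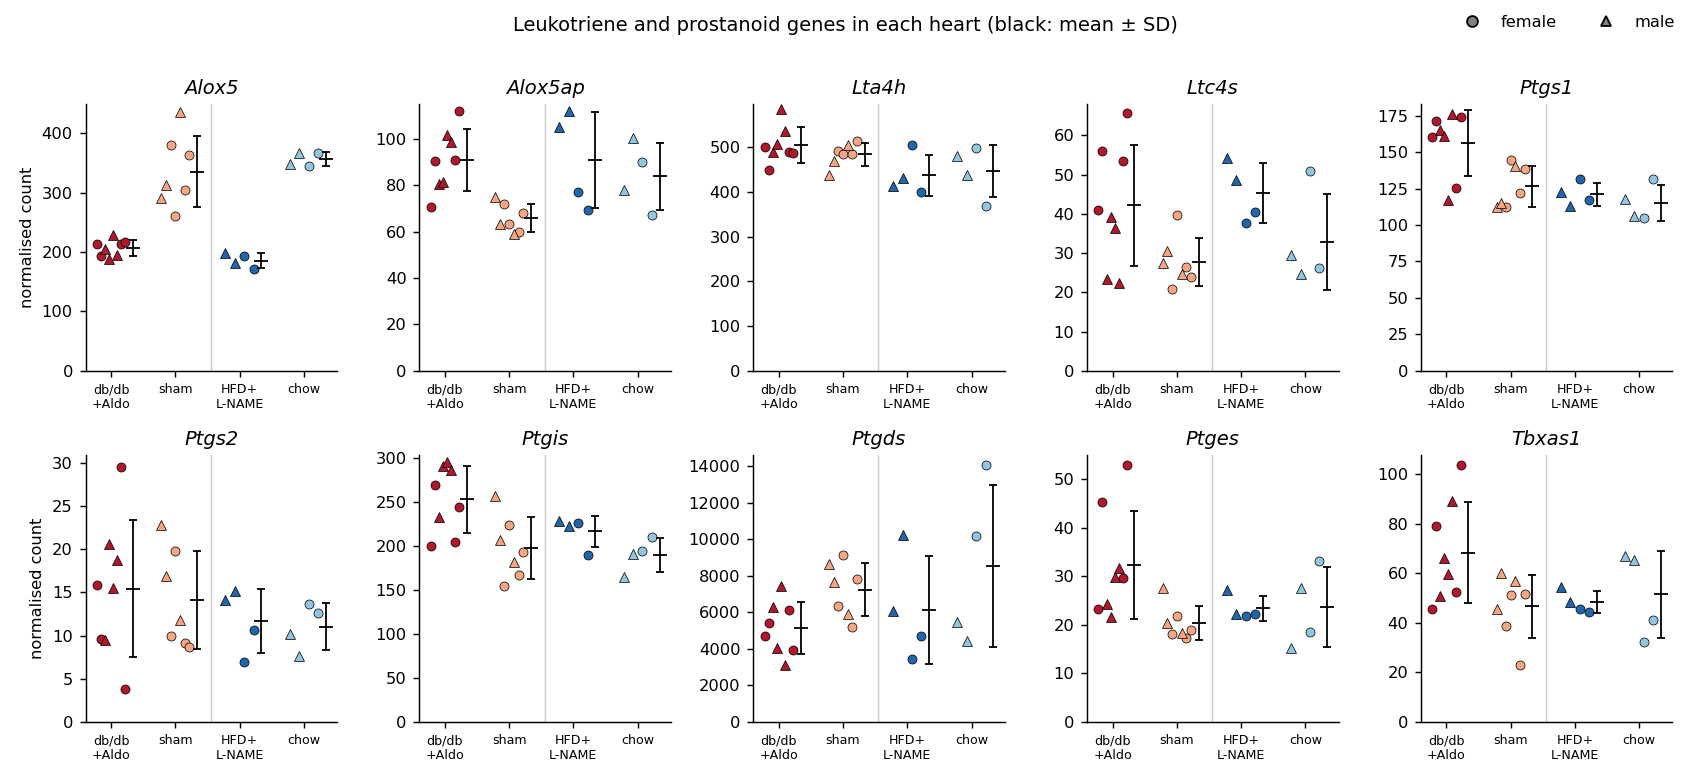
Normalised counts (y axis, from 0) of the 10 genes in each heart, by group (x axis). Circles are female and triangles male hearts, and black marks give the mean ± SD. Alox5 lies between 188.9 and 228.7 in db/db+Aldo hearts, below every sham heart, and between 171.1 and 197.7 in HFD+L-NAME hearts, below every chow heart.

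Alox5 was lower in the treated hearts of both models, with no overlap between treated and control hearts in either. In run 2 its lowest, median and highest normalised counts were 188.9, 209.7 and 228.7 in db/db+Aldo hearts, against 261.0, 313.3 and 435.7 in sham hearts. The means were 207 ± 13.8 in db/db+Aldo hearts (SD, n = 8) and 336 ± 60.4 in sham hearts (SD, n = 7), a log2 change of −0.68 ± 0.10, or 0.625-fold. In run 1 the hearts had 198, 181, 193 and 171 normalised counts with HFD+L-NAME, against 348, 366, 346 and 366 with chow. All 4 HFD+L-NAME hearts thus sat together, far below 4 chow hearts that also sat together. The log2 change was −0.94 ± 0.08 (means 186 ± 12.0 and 357 ± 11.3, SD, n = 4 each), or 0.521-fold. In the authors' deposited table the log2 fold changes of Alox5 are −0.70 ± 0.10 for db/db+Aldo and −0.94 ± 0.11 for HFD+L-NAME. Groups that do not overlap, with treated hearts lower, made up 1.79% of the genes tested in run 2 and 4.24% in run 1. Of the 13589 genes tested in both models, 24 (0.177%) fell in both, Alox5 among them, and nothing is read from this since the gene was chosen for it.

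Alox5ap did not follow Alox5. The lowest, median and highest counts of Alox5ap were 70.8, 90.9 and 112 in db/db+Aldo hearts, against 59.0, 63.5 and 75.0 in sham hearts, and 7 of 8 db/db+Aldo hearts exceeded every sham heart. Its log2 change was 0.45 ± 0.11. In run 1 the values of Alox5ap were 105, 112, 77.2 and 69.6 in HFD+L-NAME hearts and 78.2, 101, 90.1 and 67.2 in chow hearts, which overlap widely (0.10 ± 0.15).

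Per kilobase of exon, which allows genes to be compared, Alox5ap stood above Alox5 in most treated hearts and below it in every control heart. The ratio of Alox5ap to Alox5 counts per kilobase does not depend on the scaling of libraries. It was 1.27 ± 0.175 in db/db+Aldo hearts (0.955 to 1.50, SD, n = 8) and 0.584 ± 0.116 in sham hearts (0.392 to 0.747, SD, n = 7). In HFD+L-NAME hearts the ratio was 1.42 ± 0.307 (1.16 to 1.79, SD, n = 4), against 0.682 ± 0.118 in chow hearts (0.531 to 0.794, SD, n = 4). The groups did not overlap in either model. For single genes, groups with all treated hearts higher made up 2.29% of those tested in run 2 and 3.96% in run 1. The rate among ratios was not computed. Alox5 alone already separated the groups in both models and was chosen with this known, so nothing is read from the separation of the ratio.

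**Figure D2:**
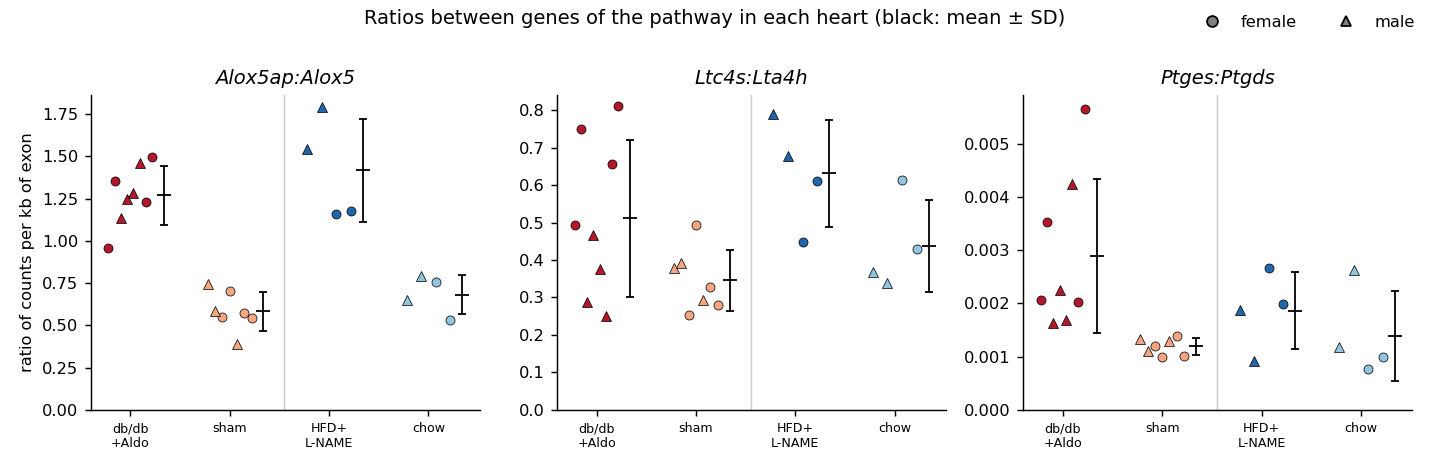
Ratios of counts per kilobase of exon (y axes, from 0) between Alox5ap and Alox5, Ltc4s and Lta4h, and Ptges and Ptgds in each heart, by group (x axis), with circles for female and triangles for male hearts and black marks for the mean ± SD. Alox5ap to Alox5 is 0.955 or more in every treated heart and 0.794 or less in every control heart.

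Lta4h, the hydrolase of the leukotriene B4 branch, differed least of the leukotriene genes. The lowest, median and highest counts of Lta4h were 449, 495 and 584 in db/db+Aldo hearts, against 438, 484 and 514 in sham hearts (log2 change 0.06 ± 0.06). The run 1 hearts held 414, 431, 504 and 400 counts of it with HFD+L-NAME and 480, 438, 498 and 368 with chow (−0.03 ± 0.11). Both pairs of groups overlap over most of their range.

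Ltc4s, at the head of the cysteinyl branch, was higher on average in both models, and more variable. Its lowest, median and highest counts were 22.3, 40.1 and 65.6 in db/db+Aldo hearts, against 20.7, 26.4 and 39.7 in sham hearts (0.56 ± 0.19), and 4 of 8 db/db+Aldo hearts exceeded every sham heart. In HFD+L-NAME hearts Ltc4s had 54.3, 48.5, 37.6 and 40.6 counts, against 29.5, 24.7, 50.9 and 26.3 in chow hearts (0.50 ± 0.24). A single chow heart, replicate 3, accounted for the overlap there. Per kilobase, Ltc4s stood at 0.512 ± 0.210 of Lta4h in db/db+Aldo hearts and 0.346 ± 0.0826 in sham hearts (SD, n = 8 and 7), and at 0.632 ± 0.142 in HFD+L-NAME and 0.438 ± 0.124 in chow hearts (SD, n = 4 each), with overlap in both models.

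Markers of myeloid cells were read beside these genes, from lists made with earlier results of these data known. Of 14 macrophage and monocyte markers 13 were tested, and limma found that 4 rose in db/db+Aldo hearts (Ccr2, Cd68, Lyve1 and Lyz2), 0 fell and 9 did not pass. Their summed count was 7105 ± 860 in db/db+Aldo hearts (5996 to 8500) and 5517 ± 880 in sham hearts (4659 to 6957, SD, n = 8 and 7). In run 1 Adgre1 and Cd68 rose, 0 of 13 fell and 11 did not pass, with sums of 7431 ± 1347 in HFD+L-NAME and 6513 ± 842 in chow hearts (5870 to 8821 and 5777 to 7724, SD, n = 4 each). Neutrophil markers summed to 41.0 to 139 in db/db+Aldo and 54.7 to 108 in sham hearts, and to 60.9 to 297 in HFD+L-NAME and 81.2 to 161 in chow hearts, with Ly6g at 0 in all libraries. Neither neutrophil marker tested in run 2 passed (Csf3r −0.27 ± 0.22 and Mmp9 −0.37 ± 0.20), nor did any of 4 in run 1. With total-count scaling, which moved the median over all genes in run 2 to −0.22, 3 macrophage markers rose in db/db+Aldo hearts and 0 in HFD+L-NAME hearts, and 0 fell in either. Of 6 mast cell markers tested, Hdc rose in both models, and the list summed to 181 to 256 in db/db+Aldo and 160 to 239 in sham hearts, and to 229 to 365 in HFD+L-NAME and 187 to 241 in chow hearts. With total-count scaling 0 mast cell markers rose and 1 fell in db/db+Aldo hearts. The part of these cells in the leukotriene genes was not tested, and in bulk tissue fewer cells of a type and less RNA per cell cannot be told apart.

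Among the prostanoid genes the cyclooxygenases came first in the pathway and were unevenly expressed, with Ptgs1 at 40.3 ± 5.81 counts per kilobase in db/db+Aldo and 32.6 ± 3.67 in sham hearts, and Ptgs2 at 3.37 ± 1.74 and 3.09 ± 1.24 in the same groups (SD, n = 8 and 7). The lowest, median and highest counts of Ptgs1, the constitutive form, were 117, 163 and 176 in db/db+Aldo hearts, against 112, 122 and 145 in sham hearts (log2 change 0.30 ± 0.10). Of the db/db+Aldo hearts 6 exceeded every sham heart, and the other two lay within the sham range. In run 1 Ptgs1 was at 123, 113, 132 and 117 with HFD+L-NAME and at 118, 106, 105 and 132 with chow (0.08 ± 0.11), which overlap fully.

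Ptgs2, the inducible cyclooxygenase, was the least abundant of the 10 genes. It ranged over 3.79, 15.7 and 29.6 counts (lowest, median, highest) in db/db+Aldo hearts, against 8.69, 11.8 and 22.8 in sham hearts, and in db/db+Aldo hearts it varied with a coefficient of variation of 51.6%. With HFD+L-NAME its counts were 14.1, 15.2, 6.93 and 10.6, against 10.2, 7.59, 13.7 and 12.7 with chow. The changes were −0.01 ± 0.32 and 0.06 ± 0.36, and errors of that size leave the direction for Ptgs2 undetermined at this depth. In the authors' deposited table Ptgs2 has 0.13 ± 0.32 for db/db+Aldo, of the other sign and within the same error.

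Ptgis, prostacyclin synthase, was higher on average in both models. Its lowest, median and highest counts were 200.3, 257 and 296 in db/db+Aldo hearts, against 154, 193 and 257 in sham hearts (0.34 ± 0.10), and 4 of 8 db/db+Aldo hearts exceeded every sham heart. The HFD+L-NAME hearts had 228, 222, 226 and 190.4 counts of Ptgis and the chow hearts 165, 191, 194 and 211 (0.19 ± 0.10). All but 1 HFD+L-NAME heart, replicate 4, lay above every chow heart.

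Ptgds, the lipocalin-type prostaglandin D synthase, was the most abundant of the 10 genes in every group. Its lowest, median and highest counts were 3132, 5048 and 7414 in db/db+Aldo hearts, against 5200, 7670 and 9136 in sham hearts (−0.52 ± 0.16), and 4 of 8 db/db+Aldo hearts lay below every sham heart. In run 1 Ptgds spread widely, with 6051, 10245, 3428 and 4679 counts in HFD+L-NAME hearts and 5457, 4405, 10178 and 14033 in chow hearts (−0.45 ± 0.36). Leaving out 1 library moved this change over −0.82 (without HFD+L-NAME replicate 2) to −0.13 (without chow replicate 4 or HFD+L-NAME replicate 3). The groups overlap in both models.

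Ptges, the microsomal prostaglandin E synthase, was higher in db/db+Aldo hearts, at 21.7, 29.7 and 53.0 counts (lowest, median, highest), against 17.3, 18.8 and 27.5 in sham hearts. The log2 change was 0.61 ± 0.19, and 5 of 8 db/db+Aldo hearts exceeded every sham heart. The HFD+L-NAME hearts had 27.2, 22.2, 21.8 and 22.2 counts of Ptges and lay within the chow hearts' 15.2, 27.5, 18.6 and 33.1 (0.04 ± 0.27). Tbxas1, thromboxane synthase, had lowest, median and highest counts of 45.6, 62.9 and 104 in db/db+Aldo hearts and 22.8, 51.1 and 60.1 in sham hearts (0.53 ± 0.20). In run 1 Tbxas1 was at 54.3, 48.5, 45.5 and 44.5 with HFD+L-NAME, within the 67.0, 65.5, 32.3 and 40.9 seen with chow (−0.03 ± 0.18). For both genes the run 1 controls spread more widely than the treated hearts. In Tbxas1 the chow hearts split by sex, at 66.3 ± 1.10 in male and 36.6 ± 6.10 in female hearts (SD, n = 2 each).

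Per kilobase, Ptgds made up 96.2 ± 1.40% of the summed transcripts of the 4 terminal synthases in db/db+Aldo hearts and 98.0 ± 0.220% in sham hearts (SD, n = 8 and 7), and 97.1 ± 1.23% in HFD+L-NAME and 98.0 ± 0.956% in chow hearts (SD, n = 4 each). Its share was lower in every db/db+Aldo heart (93.6 to 97.6%) than in any sham heart (97.8 to 98.3%), while the run 1 groups overlap. Ptgis took 3.30 ± 1.19% in db/db+Aldo and 1.74 ± 0.203% in sham hearts. Ptges was at 0.00289 ± 0.00145 of Ptgds per kilobase in db/db+Aldo hearts (0.00163 to 0.00566) and at 0.00119 ± 0.000159 in sham hearts (0.000999 to 0.00140), without overlap. In HFD+L-NAME hearts the ratio was 0.00186 ± 0.000722 and in chow hearts 0.00139 ± 0.000839, with overlap. For single genes of run 2, groups that do not overlap made up 2.29% with treated hearts higher and 1.79% lower. The rate among ratios and shares was not computed, and nothing is read from it, since the genes were chosen with their changes known. Ptgis to Tbxas1 (8.38 to 17.6 in db/db+Aldo and 11.4 to 25.9 in sham hearts) and Ptgs1 to Ptgs2 (4.99 to 54.2 and 5.80 to 18.8) overlapped.

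The order of levels per kilobase was alike in the 4 groups at its ends. In db/db+Aldo hearts it ran from Ptgds (3109 ± 871) to Ptgis (98.6 ± 14.9), Lta4h (82.8 ± 6.59), Alox5ap (64.0 ± 9.36), Alox5 (50.4 ± 3.35), Ltc4s (41.6 ± 15.2), Ptgs1 (40.3 ± 5.81), Ptges (8.23 ± 2.84), Tbxas1 (7.51 ± 2.26) and Ptgs2 (3.37 ± 1.74). In sham hearts it began with Ptgds (4388 ± 887), and Alox5 (81.7 ± 14.7) and Lta4h (79.3 ± 4.13) came next ahead of Ptgis (77.1 ± 13.7) and Alox5ap (46.4 ± 4.25). Alox5, Lta4h and Ptgis in sham hearts, Ltc4s and Ptgs1 in db/db+Aldo hearts, and Ptges and Tbxas1 in both groups differed by less than their SD. In run 1 Alox5 was at 45.2 ± 2.93 in HFD+L-NAME hearts, close to Ltc4s (44.6 ± 7.49), and at 86.9 ± 2.74 in chow hearts, next after Ptgds (SD, n = 4 each). Exon lengths join all annotated transcripts of a gene, so a gene with rarely used exons reads low.

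**Figure D3:**
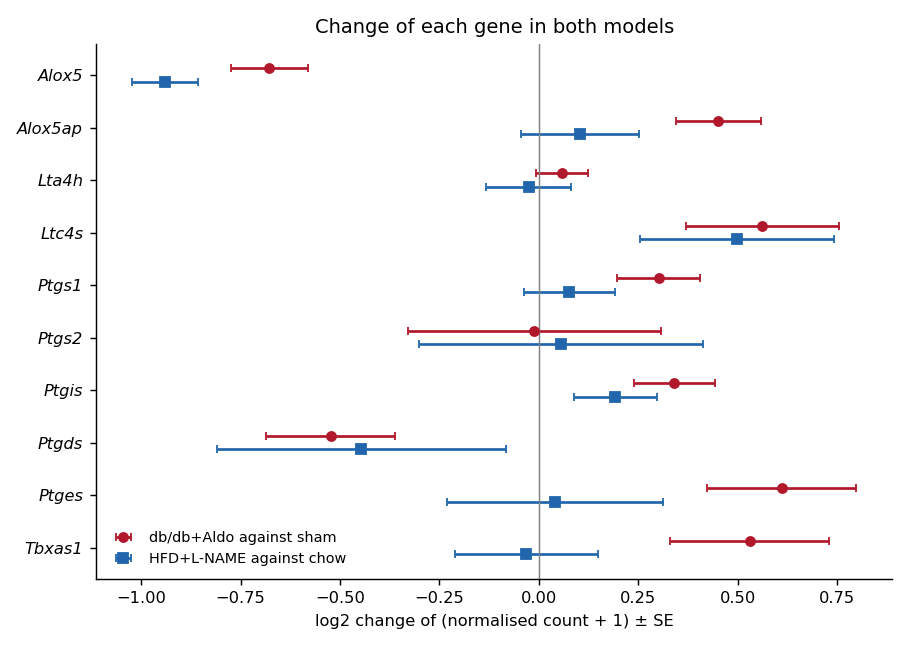
Log2 change of (normalised count + 1) with its standard error (x axis) for each of the 10 genes (y axis), with circles for db/db+Aldo against sham and squares for HFD+L-NAME against chow. Alox5 is at −0.68 and −0.94, Ltc4s at 0.56 and 0.50, and Alox5ap, Ptges and Tbxas1 are above 0 in the db/db+Aldo model, at 0.45, 0.61 and 0.53, and near 0 in the other.

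In the limma fit over all genes, at a Benjamini-Hochberg adjusted p of 0.05, 7 of the 10 genes passed in db/db+Aldo hearts, where 19.2% of 14121 genes did. Alox5ap, Ltc4s, Ptgs1, Ptgis and Ptges rose, against 9.96% of genes that rose, and Alox5 and Ptgds fell, against 9.21% that fell. Lta4h, Ptgs2 and Tbxas1 did not pass. In HFD+L-NAME hearts Alox5 fell and the other 9 did not pass, against 2.18% of 13801 genes that passed, 1.18% that rose and 1% that fell. All 10 genes passed the filter on low values in both models, and since these contrasts chose them nothing is read from the counts. The median log2 change of the 10 genes was 0.32 in db/db+Aldo hearts and 0.05 in HFD+L-NAME hearts, beside −0.02 and −0.00056 over all genes tested.

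The number of genes past the threshold in db/db+Aldo hearts differs with the scaling of the libraries, which also shifts the median over all genes. With total-count scaling, no scaling, or the deposited values used directly, 0 of the 10 genes rose and 2 fell, and the median over all genes moved to −0.22, −0.27 and −0.28. Under these scalings Alox5 was at −0.88, −0.93 and −0.94 and Alox5ap at 0.25, 0.20 and 0.19. Relative to the median of all genes, Alox5 was at −0.66 and Alox5ap at 0.47 in the fit reported, and under these scalings they were at −0.66 each time and at 0.47, 0.47 and 0.46. A change of scaling moves all genes by nearly the same amount, so these values stay alike by construction. Nothing is read from their agreement. Leaving out db/db+Aldo replicate 8 left 2 of the 10 genes past the threshold. Without db/db+Aldo replicate 2 it was 3, and 4 without db/db+Aldo replicate 4. Without sham replicate 3 or 7 the number was 3, and without sham replicate 5 or 6 it was 4. With the library-name series as a covariate it was 2. Without both db/db+Aldo replicate 5 and sham replicate 7, a fit added after the data were seen, 4 of the 10 genes rose and 2 fell.

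Within the library-name series that hold both groups, the differences of Alox5 were alike. The difference between the group means of log2(normalised count + 1) was −0.64 among the 3-digit names (2 db/db+Aldo and 4 sham hearts). It was −0.77 among the 4-digit names (4 and 3 hearts), and for Ptgds it was −0.65 and −0.35. Ptges differed by 0.08 and 0.91, Ltc4s by 0.07 and 0.70, Tbxas1 by 0.26 and 0.84 and Alox5ap by 0.24 and 0.68, so that the differences of these 4 genes were larger in the second series. Ptgis (0.33 and 0.50) and Ptgs1 (0.43 and 0.13) were higher in both, Ptgs2 differed in sign (−0.23 and 0.46) and Lta4h stayed near 0 (0.08 and 0.06). What the names stand for is not given in the sources used here, and the db/db+Aldo hearts of the first of these series are both male.

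Markers of stromal cells, from lists made with the same knowledge of earlier results, also moved in db/db+Aldo hearts. Of 11 fibroblast markers 7 rose and 0 fell, and their sum was 48075 ± 1934 in db/db+Aldo hearts (45147 to 51640) and 38876 ± 2739 in sham hearts (35703 to 41895), without overlap (SD, n = 8 and 7). Of 11 smooth muscle and pericyte markers tested 0 rose and 2 fell (Acta2 and Abcc9), with sums of 26803 ± 1267 in db/db+Aldo and 32686 ± 2084 in sham hearts, again without overlap. Total-count scaling left 3 fibroblast markers that rose and 1 that fell, and 8 smooth muscle markers that fell. Of 4 platelet markers tested, Pf4 rose, with list sums of 213 to 274 in db/db+Aldo and 193 to 260 in sham hearts, and with total-count scaling 0 passed. Of 9 endothelial markers 2 rose and 1 fell, of 7 mesothelial markers Msln rose, of 8 cardiomyocyte markers Myh6 fell (4 fell with total-count scaling), and of 2 melanocyte markers tested Dct fell. Both adipocyte markers tested, Cfd and Plin1, fell, with a list sum of 2.1 to 50.5 in db/db+Aldo and 23.6 to 212 in sham hearts. In run 1 fibroblast sums were 35331 to 37765 in HFD+L-NAME and 30646 to 39428 in chow hearts, and 0 of 11 passed. There, Fabp4 and Tie1 of the endothelial list rose, and 0 platelet, smooth muscle, cardiomyocyte, mesothelial, adipocyte and melanocyte markers passed. The part of these cells in the prostanoid genes was not tested.

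Beyond the 10 genes, 83 other genes of arachidonate metabolism were looked up, and 45 of them passed the filter in each model. In db/db+Aldo hearts 10 rose and 5 fell among these 45 (median log2 change 0.08), and in HFD+L-NAME hearts 1 rose and 0 fell (0.02), beside the 19.2% and 2.18% of all genes that passed. These genes, too, were listed with earlier results of these data known, so nothing is read from the counts. With the deposited values used directly, which moved the median over all genes to −0.28, 3 rose and 12 fell in db/db+Aldo hearts. Ptgr3, Mgst3, Slco2a1 and Pla2g4e were among the rises that did not pass there. Relative to the median of all genes they were at 0.31, 0.42, 0.56 and 0.56, beside 0.30, 0.42, 0.51 and 0.51 in the fit reported. Such values change little with scaling by construction, and nothing is read from their likeness. The 12 genes of smallest p are given here by their roles, all from the limma fit over all genes.

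Of 10 genes of phospholipase families listed under arachidonate release, 1 rose and 2 fell in db/db+Aldo hearts. Family membership does not show that each enzyme releases arachidonic acid. Pla2g2d, a secreted phospholipase A2, had lowest, median and highest counts of 5.0, 13.8 and 28.7 in db/db+Aldo hearts, against 23.6, 30.5 and 56.8 in sham hearts (log2 change −1.29 ± 0.28, adjusted p = 0.00345). Pla2g12a, another secreted form, averaged 646 ± 33.7 in db/db+Aldo and 878 ± 123 in sham hearts, without overlap (−0.43 ± 0.08, adjusted p = 0.000614). Pla2g4e, of the cytosolic family, rose by 0.49 ± 0.12 (adjusted p = 0.00746). Pnpla8, a calcium-independent phospholipase and the most abundant gene of this role, averaged 1946 ± 192 in db/db+Aldo and 2045 ± 170 in sham hearts (−0.07 ± 0.07, adjusted p = 0.527).

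Of 7 genes tested that were listed under leukotriene conversion and loss, 3 rose in db/db+Aldo hearts and 0 fell. Dpep1, a dipeptidase that cleaves leukotriene D4, had lowest, median and highest counts of 1333, 1554 and 1902 in db/db+Aldo hearts and 545, 754 and 1093 in sham hearts, without overlap (0.95 ± 0.12, adjusted p = 1.80e-05). Dpep1 is also one of the fibroblast markers that rose together. Cyp4f18, which hydroxylates leukotriene B4 in mouse neutrophils, averaged 22.4 ± 6.25 in db/db+Aldo and 10.99 ± 2.36 in sham hearts, without overlap (0.94 ± 0.20, adjusted p = 0.00246). Mgst3, a microsomal glutathione transferase, rose by 0.40 ± 0.09 (adjusted p = 0.00367). Neither leukotriene receptor tested passed in either model.

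Of 13 genes of prostanoid conversion, transport and breakdown, 3 rose and 2 fell in db/db+Aldo hearts. Abcc4, an exporter of prostanoids, had 233, 255 and 309 counts (lowest, median, highest) in db/db+Aldo hearts and 321, 369 and 386 in sham hearts, without overlap (−0.47 ± 0.07, adjusted p = 0.000162). Slco2a1, the prostaglandin importer, rose by 0.49 ± 0.12 (adjusted p = 0.00606). The reductase Ptgr3 rose by 0.29 ± 0.06 (adjusted p = 0.00177). Ptges3, the co-chaperone also known as cytosolic prostaglandin E synthase, fell by 0.33 on the log2 scale (SE 0.07, adjusted p = 0.00219). Akr1b3 and Ptgr2, the most abundant of this role among those that did not pass, were at 0.01 ± 0.08 and −0.01 ± 0.06 (adjusted p = 0.923 and 0.951). None of 5 prostanoid receptors passed in either model.

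The epoxygenase branch held the smallest p of the 45 genes tested. Ephx2, the soluble epoxide hydrolase that turns epoxides of arachidonic acid into diols, rose in both models. Its lowest, median and highest counts were 4522, 6093 and 6954 in db/db+Aldo hearts, against 3311, 3645 and 3944 in sham hearts (0.75 ± 0.08, adjusted p = 2.47e-06). In run 1 its mean was 4395 ± 243 in HFD+L-NAME and 3387 ± 110 in chow hearts (SD, n = 4 each), again without overlap (0.37 ± 0.05, adjusted p = 0.00388). Without the variance trend in limma this rise in run 1 did not pass (adjusted p = 0.0721). Cyp2u1, which hydroxylates arachidonic acid, fell by 0.52 on the log2 scale in db/db+Aldo hearts (SE 0.10, adjusted p = 0.000898). Past the 12 genes that the rule names, Alox12 (0.56 ± 0.14), Hpgd (0.47 ± 0.14) and Cyp2j6 (0.31 ± 0.11) also rose there. In run 1 Mgst3 (−0.07 ± 0.06), Akr1b3 (0.11 ± 0.06) and Pnpla8 (−0.04 ± 0.07), the most abundant uncalled genes, did not pass (adjusted p = 0.617, 0.445 and 0.867).

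**Figure D4:**
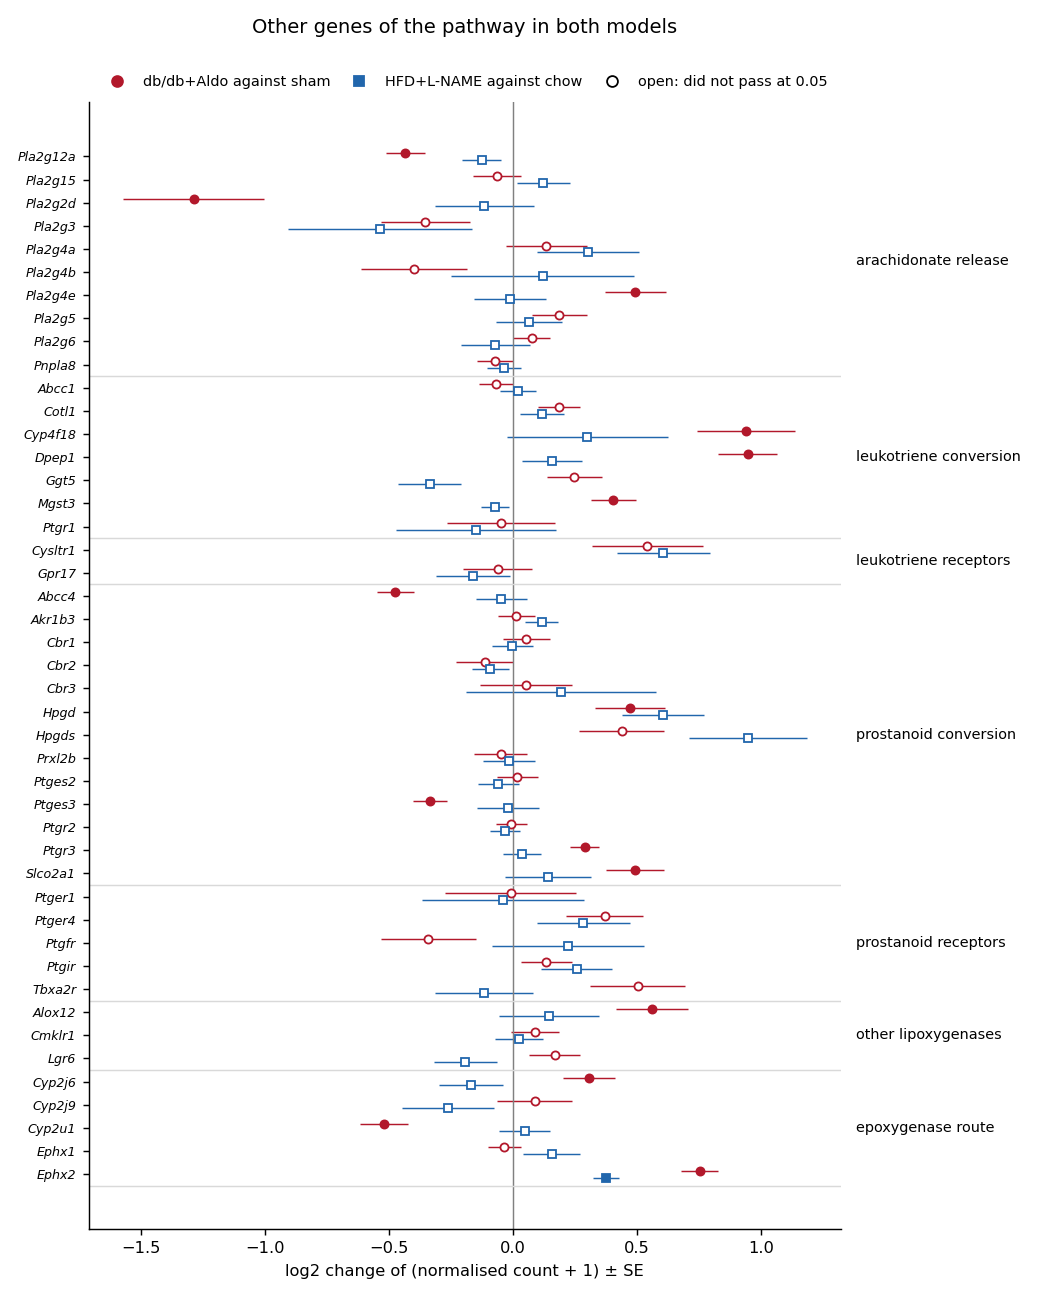
Log2 change of (normalised count + 1) with its standard error (x axis) for the 45 other pathway genes tested (y axis, grouped by role), with circles for db/db+Aldo against sham and squares for HFD+L-NAME against chow. Filled symbols passed an adjusted p of 0.05, namely 15 circles and a single square, Ephx2, which is at 0.75 and 0.37.

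Sex was not used to choose the genes, so it could be tested. At an adjusted p of 0.05 in limma, 0 of the 10 genes differed between female and male hearts in run 2 and 0 in run 1, beside 0.0921% and 0.362% of all genes, and at an unadjusted p under 0.05 there were 2 in each run. For the 45 other genes the counts were 0 and 0, with 3 and 8 at an unadjusted p under 0.05. Over all genes tested, 519 of 14121 in run 2 and 1514 of 13801 in run 1 had an unadjusted p under 0.05 for sex. Ltc4s averaged 54.0 ± 10.1 in female and 30.3 ± 8.8 in male db/db+Aldo hearts (SD, n = 4 each), and 27.7 ± 8.4 in female and 27.6 ± 2.9 in male sham hearts (SD, n = 4 and 3). Its sex by treatment interaction, 0.87 ± 0.34, did not pass in limma (adjusted p = 1.00).

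Alox5 was lower in treated hearts of both sexes. It averaged 210 ± 10.7 in female and 204 ± 17.5 in male db/db+Aldo hearts, against 327 ± 55.0 in female and 346 ± 78.1 in male sham hearts. In run 1 it averaged 182 ± 15.4 in female and 189 ± 11.9 in male HFD+L-NAME hearts, against 356 ± 14.8 and 357 ± 12.7 in female and male chow hearts (SD, n = 2 each). Its interaction was 0.11 ± 0.20 in run 2 and −0.05 ± 0.17 in run 1 (limma adjusted p = 1.00 and 0.977).

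Ptgds had opposite differences in the sexes of run 1. Female hearts had 3428 and 4679 counts with HFD+L-NAME, against 10178 and 14033 with chow. Male hearts had 6051 and 10245 with HFD+L-NAME, against 5457 and 4405 with chow. Both female treated hearts thus lay below, and both male treated hearts above, the chow hearts of their sex. The limma interaction was −2.26 ± 0.32 with an unadjusted p = 1.73e-05, and after adjustment over all genes it did not pass (adjusted p = 0.120), where 1 gene (0.00725%) did. Same-numbered hearts of run 1 share sex, and with sex removed they did not deviate together (r −0.11 to −0.01). With the replicate number as a block, which thus rests on no pairing seen here, the limma interaction passed (adjusted p = 0.0407). It also passed without HFD+L-NAME replicate 1 (adjusted p = 0.000762) or replicate 4 (adjusted p = 0.0402), and over all other settings the adjusted p was 0.0585 to 0.777 with the sign kept. In run 2 the Ptgds interaction was 0.08 ± 0.34, with means of 5040 ± 942 in female and 5212 ± 1977 in male db/db+Aldo hearts and 7118 ± 1716 in female and 7392 ± 1394 in male sham hearts. Ptgs2 and Tbxas1 also had opposite differences in the sexes. In run 1 Ptgs2, at low counts, averaged 8.78 in female HFD+L-NAME and 13.2 in female chow hearts, and 14.6 and 8.87 in male hearts. Tbxas1 went the opposite way, at 45.0 and 36.6 in female and 51.4 and 66.3 in male hearts (n = 2 each). For both genes, treated and chow hearts of a sex did not overlap. With 2 hearts against 2 such separation comes about easily. Its share over all genes was not computed, and nothing is read from it for these genes or Ptgds. Neither interaction passed in limma (−1.24 ± 0.65, adjusted p = 0.798, and 0.66 ± 0.32, adjusted p = 0.768).

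**Figure D5:**
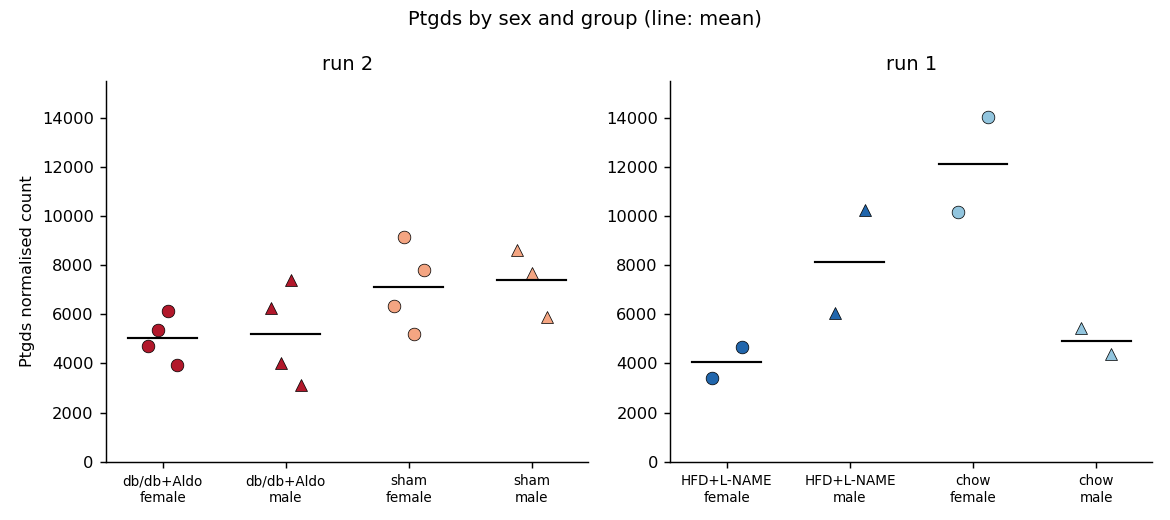
Normalised counts of Ptgds (y axis, from 0) in each heart by group and sex (x axis), run 2 on the left and run 1 on the right, with lines for the means. In run 1 female means are 4053 with HFD+L-NAME and 12105 with chow, and male means are 8148 and 4931, while in run 2 both sexes have lower means in db/db+Aldo than in sham hearts.

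The genes most like 4 of the members were sought among 10489 genes by Pearson's r of the deviations from the group mean over the 23 libraries, which share depth and scaling. Each r given is among the highest of that many. The height that chance alone reaches was not computed, so no link between genes is read from these values. The nearest to Alox5 were Pick1 (r = 0.78), Tut1 (0.78) and Exoc7 (0.77). Their own log2 changes in db/db+Aldo hearts were −0.09, −0.24 and −0.03, and in HFD+L-NAME hearts −0.21, −0.03 and 0.05, so that none of the 3 had a difference near that of Alox5. Ltc4s lay nearest to Rint1 (0.72), Capg (0.70) and Lrp11 (0.67). Ptgds lay nearest to Myoz2 (0.79), Gtf2f2 (0.78) and Des (0.78), of which Des encodes the muscle filament desmin and Myoz2 a protein of the sarcomere. Ptges lay nearest to Hmga1 (0.76), Khk (0.73) and Bmf (0.72). The deviations of Alox5 and Alox5ap, whose products act together, had r = 0.07 (n = 23). Alox5ap had only 55 to 111 reads per heart, and sampling noise lowers such an r, so it does not show that the genes vary independently.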

How the data were processed

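Poly(A) RNA of 23 whole-heart samples was sequenced in paired-end reads of 100 nucleotides, per the labels' protocols. Builds GRCm38 and mm10 and the tools featureCounts, limma and DESeq2 are listed in the submitters' processing notes. Aligner, versions, annotation and strand setting are not given there, so a gene's reads cannot be told apart from those of an antisense neighbour. The authors deposited a run-corrected table of 55487 genes and a table per model whose mean signal, log2 fold change, Wald score and p-value columns are named per the file headers. In the run-corrected table values of a gene differed by whole numbers within a run in 100% of cases, the run means were equal in 100% of genes and 10.2% of values were below 0, the lowest −2310. Counts were recovered by adding back 1 shift per gene and run, solved from the authors' mean signal, for 52392 genes (whole within 0.001 for 99.98% in run 2 and 100% in run 1), and not for 3095.

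Recovered counts were divided by median-ratio size factors. Within each model, genes with a mean of at least 10 were fitted on log2(count + 1) with limma 3.58.1 in R 4.3.3 (variance trend, sex as covariate) and Benjamini-Hochberg adjustment at 0.05. The interaction added the product of sex and treatment. The code was tested on simulated counts. Python 3.11.15, numpy 2.4.6, pandas 2.3.3 and matplotlib 3.10.9 did the rest. Gene positions and exon lengths came from GENCODE M21 on GRCm38, and promoter sequences from RefSeq. Dpep2 had more than 1 row and was matched by identifier, Akr1b3 is listed as Akr1b1, and of 84 symbols looked up 1 had no row of its own.

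The 10 genes and all lists were chosen with earlier results of these data known. Other pathway genes are named where they passed (at most 12 a comparison, smallest p first) or were among the 3 most abundant that did not. Likeness was sought for the 4 members of largest summed absolute change, over genes with a mean of at least 50 in both models. The labels name separate samples without saying how they were collected, so a p-value speaks only of the spread among these hearts. No replicate pair agreed within sampling noise (lowest chi-square per gene 7.07). Same-numbered samples of run 1 deviated together (r 0.12 to 0.31 in 4 of 4 pairs), so the replicate block is given there beside the Ptgds interaction. These pairs also share sex, and with sex removed r was −0.11 to −0.01. In run 2 only 1 of 7 pairs exceeded 0.1.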

Additional observations from a re-analysis of the deposited data

Results flagged for a closer look

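In 3 of 78 groups of 4 to 8 hearts checked for single samples far from the others, 1 heart stood apart, and chance gives about 1 in 20. Slco2a1 was at 183 normalised counts in sham replicate 4, against 104 to 126 in the other sham hearts. Ptgis was at 190.4 in HFD+L-NAME replicate 4, against 222 to 228 in the other HFD+L-NAME hearts. Ptges was at 27.2 in HFD+L-NAME replicate 1, against 21.8 to 22.2 in the others of its group.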

How the results depend on the processing

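Of the 10 genes, 7 passed in db/db+Aldo hearts in the fit reported, 4 with no filter on the mean, 4 with no variance trend, 2 with total-count scaling, 2 with no scaling, 2 with the deposited values, 2 with the library-name series as covariate and 1 with the replicate block. The number ranged from 2 to 7 when a library was left out. Of the other pathway genes, 10 rose there, against 4 with total-count scaling, 3 with no scaling and 3 with the deposited values, and 5 fell, against 12, 13 and 12. Those 3 scalings move the median of all genes to −0.22, −0.27 and −0.28, and Ptgr3, Mgst3, Slco2a1 and Pla2g4e passed under none of them. In limma, Pnpla8 and Ptgr2 passed as falls with total-count scaling (adjusted p = 0.0201 and 0.0465) and with the deposited values (0.0225 and 0.0432). Relative to the median of all genes, Pnpla8 and Ptgr2 were at −0.06 and 0.01 with total-count scaling, values that scaling hardly moves by construction. In HFD+L-NAME hearts 1 rose, against 0 with no variance trend and 2 with all 23 libraries in 1 fit (1 to 2 when a library was left out, 2 without HFD+L-NAME replicate 4). The interaction of run 1 was called for 0 genes, against 1 with the replicate block and 0 to 2 when a library was left out. In run 2 the numbers pair nothing, and the block there is only an alternative. Other settings (pseudocounts of 0.5 and 5, quantile normalization, a minimum mean of 50, voom, array weights, no sex covariate, total counts without the mitochondrial genome, and, added after seeing the data, a fit without both libraries standing apart) kept these counts within 1.5 times. No called value of a named gene changed sign. Low counts limit Ptgs2 most.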
